A study of Homo sapiens with 30 samples.

Results

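The response to pladienolide B (PB) of cells carrying SF3B1 T1080I was examined in 6 of the 30 RNA-seq libraries of the series. The 6 libraries are 3 pairs, chosen by their labels alone: 3 monoclonal lines, each treated for 3 h with 2 nM PB or with the solvent DMSO. The cells were eHAP FNLS: eHAP is a human haploid line, itself a derivative of HAP1, and FNLS is a cytosine base editor that all groups shared. The series was made to ask how mutations of splicing factors tied to PB resistance act on splicing. The 3 SF3B1 T1080I lines came from 1 guide RNA, were grown from separate clones and are called lines 1, 2 and 3 by their replicate numbers, and the PB and DMSO libraries of a number came from the same clone. They were set beside 2 other genotypes treated in the same way. The control had a non-targeting guide RNA and gave 3 replicates of 1 line, so their spread is that between cultures, whereas the spread in a mutant is that between clones. PHF5A 2xTL cells carried a 6-nt insertion in PHF5A and gave 3 clones. The SUGP1 E554K and SUGP1 G603N lines of the series entered the fit and are used only where named.

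PB binds SF3b, the part of the U2 small nuclear ribonucleoprotein (U2 snRNP) that holds the branch point adenosine of an intron, and so blocks an early step of splicing. SF3B1 is the large subunit of SF3b. Its HEAT repeats and the small subunit PHF5A form the pocket in which the compound sits, and substitutions around that pocket are known to make cells resistant. An intron that is not removed, or a skipped exon, often leads to decay or nuclear retention of the transcript, so a block of splicing can change the abundance of mature RNA. Gene counts show that abundance and not splicing itself.

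The SF3B1 codon that T1080I names is shown here with 30 bases on either side to place the edit. In the reference transcript it is ACA, a threonine codon, at chr2:197398011-197398013 (hg38, minus strand), in exon 22 of 25. A C-to-T change in the middle base of this codon, the kind of change a cytosine base editor makes, gives an isoleucine codon. In the sequence below, read 5′ to 3′ on the coding strand from the GENCODE 29 transcript, capitals mark the codon. Its first 59 bases lie in exon 22 and the rest in exon 23.
SF3B1: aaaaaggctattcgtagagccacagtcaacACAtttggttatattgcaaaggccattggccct
The deposited counts do not show the base at this codon, so the genotype rests on the labels.

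SF3B1 itself (ENSG00000115524) was expressed in every library and did not pass the test for PB in its own mutant lines. In counts per 1000000 counts of the library, after TMM scaling of library sizes (CPM), it stood at 480.3, 461 and 511 with DMSO and at 484, 572 and 522 with PB in lines 1, 2 and 3. The groups overlapped and only line 2 lay well above its own DMSO value. The log2 fold change was 0.12 ± 0.08 (SE, 95% confidence interval -0.06 to 0.29, adjusted p = 1, edgeR quasi-likelihood test with each line as a block). In control SF3B1 rose by a log2 fold change of 0.36 ± 0.09 (adjusted p = 0.00471), but the difference between the genotypes did not pass the test (-0.24 ± 0.12, adjusted p = 0.494).

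The 6 libraries held 37310963 to 64108936 counts, with 1.60 to 1.82% on processed pseudogenes. The share of counts on mitochondrial genes was 11.31, 10.24 and 11.25% with DMSO and 11.21, 10.14 and 10.65% with PB in lines 1, 2 and 3. The ranges overlapped, but the share was lower with PB in each of the 3 pairs, and its part in the results was not tested. After the mean of each treatment was taken off, the PB and DMSO libraries of a clone correlated at 0.84, 0.79 and 0.82 over 11967 genes. Libraries of different clones correlated at -0.52 to -0.27. With 3 clones, taking off the mean forces negative values between clones where those within a clone are positive. The negative values are thus not a separate observation. Between the DMSO libraries of the 3 clones 533 of these genes differed by over 2-fold and 114 by over 4-fold, and PB was tested within each clone. Line 2 stood slightly apart in its response: its median log2 change over these genes was 0.10, against -0.02 in lines 1 and 3. Against the control DMSO libraries, the 123 genes of chromosome 21 had median log2 differences of -0.28, -0.27 and -0.23 in the DMSO libraries of the 3 lines. Smaller differences were those of chromosome 15 (-0.12, -0.11 and -0.05) and chromosome 8 (0.10, 0.12 and 0.07). Control is 1 line, so these are differences from that line and cannot be tied to the genotype. The within-clone comparison removes them. Markers of cell types were read as lists. Of 15 haematopoietic markers 3 reached 1 CPM (RUNX1, KIT and TAL1), and PTPRC, CD34, SPI1 and CD33 were below it. Their summed level was 27.5 to 33.1 CPM with DMSO and 28.1 to 34.4 CPM with PB. Of 10 epithelial markers 3 reached 1 CPM, of 10 mesenchymal markers 5, with VIM at 265 CPM, and of 10 neural markers 6, with SOX2 at 785 CPM. The summed levels of each list overlapped between PB and DMSO, and 0 markers were called, where only 0.0159% of all genes tested were.

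In SF3B1 T1080I lines PB changed 5 of 31444 genes tested, 3 higher (0.00954%) and 2 lower (0.00636%), or 0.0159% in all at an adjusted p below 0.05. In control the same treatment changed 3095 genes (9.84%), 809 higher and 2286 lower. The 5 genes were CDC40 and PRPF39, which encode splicing factors, SNHG5, a host gene of small nucleolar RNAs, an RNA inside an intron of HNRNPL, and MYOM1. An unadjusted p below 0.05 was reached by 425 genes (1.35%). This is fewer than a threshold of 0.05 would give with no response at all, so the joint fit was strict for these lines. With the 6 libraries fitted alone, 1697 of 24557 genes reached it. The median SD of the log2 change between lines was 0.139 in SF3B1 T1080I, against 0.158 to 0.235 in the other genotypes. The number of calls moved with the fit: it was 1 without the line as a block, 44 with these 6 libraries fitted alone (24557 genes tested), and 0, 1 and 0 without line 1, 2 or 3.

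CDC40 fell with the lowest p of all genes. It encodes the splicing factor also called PRP17, which acts at the second catalytic step, after the branch point has been used (ENSG00000168438, chr6:110180141-110254275, plus strand). Its level was 33.6, 35 and 37.5 CPM with DMSO and 18.3, 21.2 and 18.6 CPM with PB in lines 1, 2 and 3. Every PB value lay below every DMSO value, and the level dropped to 0.548 times that with DMSO (log2 fold change -0.87 ± 0.12, 95% confidence interval -1.11 to -0.62, adjusted p = 0.00239). CDC40 fell in control too, from 33.4 ± 1.89 to 24.6 ± 2.38 CPM (SD, n = 3 each, log2 fold change -0.45 ± 0.12, adjusted p = 0.0138). It was the only gene called lower in control, of 2286, whose estimate in SF3B1 T1080I was further from 0 than in control. The difference between the genotypes was -0.42 ± 0.17 and did not pass the test (adjusted p = 0.292). In PHF5A 2xTL, CDC40 fell from 34.3 ± 1.42 to 19.7 ± 0.19 CPM (SD, n = 3 each, log2 fold change -0.80 ± 0.12, adjusted p = 0.0107) and was the only gene called there, 1 of 31444 (0.00318%). With PHF5A 2xTL fitted alone, or without any 1 of its 3 replicates, 0 genes were called. Its log2 fold change in SUGP1 E554K was -0.40, with an adjusted p of 0.0252. That in SUGP1 G603N was -0.32, with an adjusted p of 0.101. The 95% confidence interval in SF3B1 T1080I overlapped those of control (-0.69 to -0.20) and SUGP1 E554K (-0.65 to -0.16) but not that of SUGP1 G603N (-0.56 to -0.07), and the difference from the SUGP1 lines was not tested. CDC40 overlaps METTL24 on the opposite strand. The call was kept without the block (adjusted p = 0.00365) and without line 2 (0.0242) and was lost without line 1 (0.0889) or line 3 (0.327).

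PRPF39 rose by 1.49-fold. It encodes a protein of the U1 snRNP, which recognises the 5′ splice site (ENSG00000185246, chr14:45084099-45116282, plus strand). It stood at 47.8, 49.3 and 55.3 CPM with DMSO and at 74.0, 78.8 and 74.4 CPM with PB, and the groups did not overlap (log2 fold change 0.58 ± 0.10, adjusted p = 0.0123). In control it rose from 50 ± 2.25 to 92.0 ± 3.31 CPM (SD, n = 3 each, 0.88 ± 0.10, adjusted p = 3.14e-07), and the difference between the genotypes did not pass the test (-0.30 ± 0.14, adjusted p = 0.41). The value in PHF5A 2xTL was 0.24 ± 0.10 (adjusted p = 1). The difference between the mutants, 0.34 ± 0.14 with a 95% confidence interval of 0.06 to 0.61, did not pass either (adjusted p = 1).

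SNHG5, whose introns carry small nucleolar RNAs, rose by 1.54-fold (ENSG00000203875, chr6:85660950-85678748, minus strand). It stood at 40.6, 37.3 and 39.8 CPM with DMSO and at 53.3, 68.1 and 60.3 CPM with PB (log2 fold change 0.62 ± 0.10, adjusted p = 0.0123). The groups did not overlap, and the log2 changes were 0.39, 0.87 and 0.60 in lines 1, 2 and 3. In control it rose by 1.11 ± 0.11 (adjusted p = 3.26e-08), from 27.3 ± 1.57 to 58.6 ± 0.613 CPM (SD, n = 3 each). The mutant lines thus reached a PB level close to that of control from a higher DMSO level, and the difference in response did not pass the test (-0.48 ± 0.15, adjusted p = 0.0926).

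The largest fold was that of ENSG00000269688, a short RNA annotated inside an intron of HNRNPL on the same strand (chr19:38844729-38845499, minus strand). Its level was 3.57, 3.86 and 3.12 CPM with DMSO, from 163 to 219 counts, and 8.81, 10.7 and 10.5 CPM with PB, from 392 to 656 counts. The rise was 2.85-fold, with no overlap (log2 fold change 1.51 ± 0.24, adjusted p = 0.011). Of the 11967 genes that averaged 4 CPM or more over the 6 libraries, it was the only one whose estimate passed 2-fold. In control the log2 fold change was 3.21 ± 0.25 (adjusted p = 1.17e-09), and here the response was smaller in SF3B1 T1080I by the test of the difference (-1.70 ± 0.34, adjusted p = 0.0047). In PHF5A 2xTL it was 0.59 ± 0.24 (adjusted p = 1). Because it lies within HNRNPL, its counts can hold reads of unspliced HNRNPL RNA. HNRNPL itself, an RNA-binding regulator of splicing, stood at 359, 358 and 383 CPM with DMSO and at 394, 405 and 422 CPM with PB (log2 fold change 0.15 ± 0.08, adjusted p = 1, and 0.28 ± 0.08 in control, adjusted p = 0.0176).

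MYOM1, the gene of a protein known from the M-band of muscle sarcomeres, fell by the same step in each clone from very different starting levels (ENSG00000101605, chr18:3066807-3220108, minus strand). It stood at 125, 84.3 and 157 CPM with DMSO and at 87.5, 56.7 and 109 CPM with PB. The groups overlap, since line 2 with DMSO lay below line 3 with PB, but the log2 changes within the lines were -0.52, -0.57 and -0.52. The fitted change was -0.54 ± 0.09 (adjusted p = 0.0123), which was lost without the block (-0.53, adjusted p = 1). In control MYOM1 fell to a greater extent, from 117 ± 14.2 to 43.7 ± 1.51 CPM (SD, n = 3 each, log2 fold change -1.41 ± 0.09, adjusted p = 2.81e-11), and the difference passed the test (0.87 ± 0.13, adjusted p = 0.00015). In PHF5A 2xTL the value was -0.43 ± 0.09 (adjusted p = 0.562).

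Besides CDC40, the other 4 calls were each lost without the block and without any 1 of the 3 lines. Without the block the adjusted p was 0.163 for PRPF39, 1 for SNHG5, 0.435 for ENSG00000269688 and 1 for MYOM1. Without line 1, 2 or 3 it was 1, 0.911 and 0.327 for PRPF39, 0.0889, 1 and 0.604 for SNHG5, 0.0889, 0.262 and 0.327 for ENSG00000269688, and 0.655, 0.523 and 0.604 for MYOM1. None of the 5 changed sign in any alternative fit. Each had the same sign in all 3 lines, and the alternatives refit the same libraries, so the kept sign is no separate support.

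**Figure D1:**
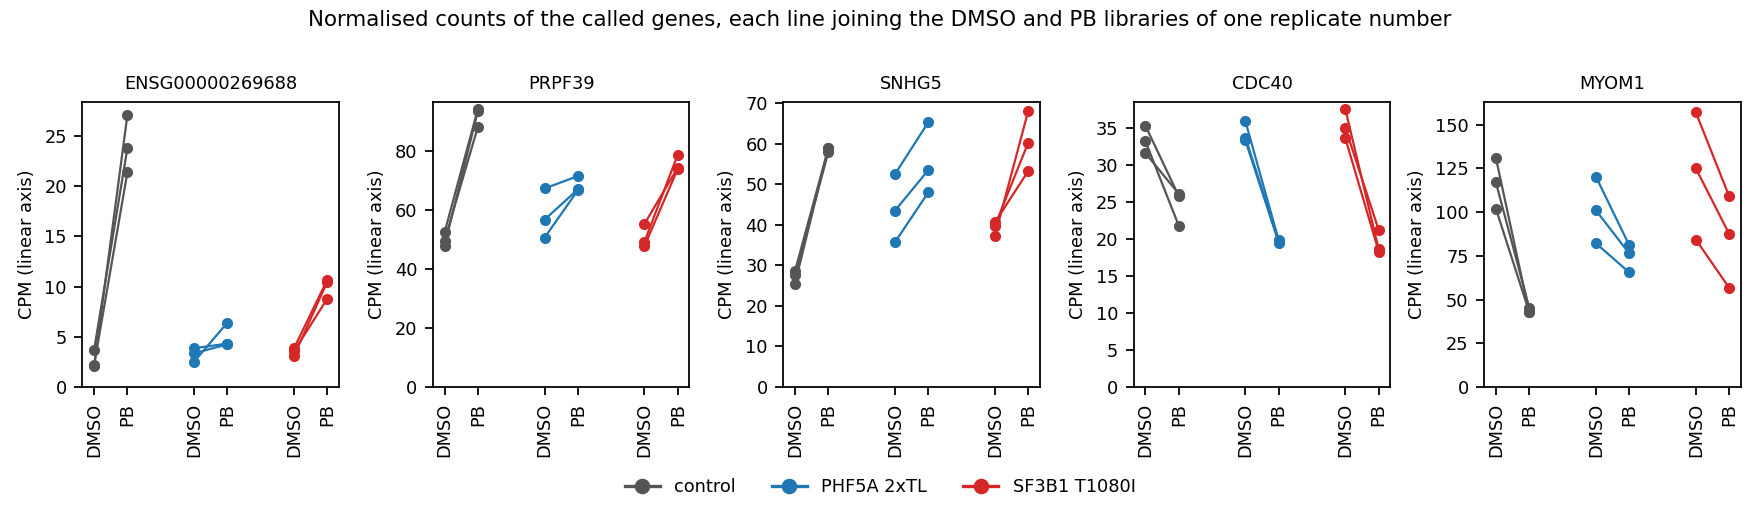
Level in CPM (linear axis, from 0) of the 5 genes called with PB in SF3B1 T1080I, in the 18 libraries of control, PHF5A 2xTL and SF3B1 T1080I; each line joins the DMSO and PB libraries of 1 replicate number. CDC40 fell from 33.6 to 37.5 CPM with DMSO to 18.3 to 21.2 CPM with PB in SF3B1 T1080I, and MYOM1 fell in parallel from 3 different levels.

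To see what lay just below the threshold, the list was extended to the 12 genes of lowest p in each direction that averaged 4 CPM or more and changed in the same direction in all 3 lines. This order uses the T1080I libraries, so it describes them. Of all 11967 genes at that level, 368 (3.08%) had every PB value above every DMSO value. Another 263 (2.2%) had every PB value below every DMSO value. The 9 further genes on the higher side had log2 fold changes from 0.29 to 0.81 and the 10 on the lower side from -0.74 to -0.32, and none of these 19 passed the test (adjusted p from 0.189 to 1). With the 6 libraries fitted alone, 17 of the 19 were called, the exceptions being C1orf52 and STX16. In that fit 44 of all 24557 genes tested were called. The same 6 libraries chose the 19 genes, so these calls are no separate support for them. ENSG00000232611 was also called with DESeq2 and C1orf109 with no low-count filter.

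On the higher side RBM39, a splicing factor related to U2AF2, stood at 345, 321 and 366 CPM with DMSO and at 422, 468 and 421 CPM with PB (log2 fold change 0.35 ± 0.08, adjusted p = 0.925). RSRC2, a protein with an arginine/serine-rich stretch, stood at 165, 161 and 181 CPM and at 209.6, 241 and 202 CPM (0.36 ± 0.10, adjusted p = 1). For both genes all PB values lay above all DMSO values. C1orf109 and RBIS, which encode ribosome-assembly factors, had the largest folds among the protein-coding genes of these 9. C1orf109 stood at 29.4, 36.6 and 39.8 CPM with DMSO and at 48.5, 54.7 and 56.1 CPM with PB (0.60 ± 0.13, adjusted p = 0.239). RBIS stood at 13.6, 17.3 and 18.5 CPM and at 23, 28.9 and 22.9 CPM (0.60 ± 0.14, adjusted p = 0.568). E2F3, a transcription factor of the G1/S transition, stood at 79.7, 90.2 and 81.4 CPM and at 101, 113 and 109 CPM (0.36 ± 0.10, adjusted p = 1). DGCR11, like ENSG00000269688, is annotated inside an intron on the same strand as its host, here DGCR2. It stood at 3.26, 4.3 and 3.33 CPM with DMSO and at 6.03, 6.51 and 6.44 CPM with PB (0.81 ± 0.21, adjusted p = 0.976). The long non-coding RNA ENSG00000232611 had a value of 0.79 ± 0.16 (adjusted p = 0.189), C1orf52 one of 0.29 ± 0.09 and the zinc finger gene ZNF696 one of 0.46 ± 0.14 (adjusted p = 1 for both).

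On the lower side TAOK3, a STE20-family kinase, stood at 44.8, 43.4 and 51.7 CPM with DMSO and at 32.7, 33.9 and 34.4 CPM with PB (log2 fold change -0.47 ± 0.11, adjusted p = 0.568). NUP54, a protein of the central channel of the nuclear pore, stood at 67.9, 73.8 and 79.2 CPM and at 47.1, 66.4 and 51.5 CPM (-0.43 ± 0.10, adjusted p = 0.568). COG2, a subunit of a Golgi tethering complex, stood at 18.7, 21.4 and 19.2 CPM and at 11.2, 13.5 and 15.5 CPM (-0.57 ± 0.14, adjusted p = 0.925). In these 3 genes the groups did not overlap, and the smallest step was that of NUP54 in line 2. SLC30A7, a zinc transporter of the Golgi, had a value of -0.49 ± 0.12 (adjusted p = 0.976). SUDS3, a subunit of the SIN3 corepressor, had -0.33 ± 0.10 and UVSSA, a factor of transcription-coupled DNA repair, -0.37 ± 0.11 (adjusted p = 1 for both). STX16, a SNARE protein of the trans-Golgi network, had -0.32 ± 0.10, TMEM131L -0.47 ± 0.14 and YJEFN3 -0.52 ± 0.15 (adjusted p = 1 for each). SLC12A3, a sodium chloride cotransporter, differed far more between the clones than with PB, at 29.4, 1.02 and 4.36 CPM with DMSO and 21.7, 0.278 and 3.06 CPM with PB (-0.74 ± 0.21, adjusted p = 1).

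The control libraries are separate from those of SF3B1 T1080I but share the fit's estimate of spread, which entered both the order of p that chose these 24 genes and the calls in control, so the counts of calls are not independent of the choice. Of the 12 higher genes, 9 were called higher in control, against 4.42% of the 11967 genes that averaged 4 CPM or more (2.57% of all genes tested). All 12 lower genes were called lower in control, against 17.1% at that level (7.27% of all genes). Every one of the 24 had the same sign in control. The 3 higher genes not called there were RBIS (0.15, adjusted p = 0.653), RBM39 (0.17, adjusted p = 0.286) and ZNF696 (0.18, adjusted p = 0.563), and for each of them the estimate in SF3B1 T1080I was larger, with no difference past the test (adjusted p = 0.379, 0.745 and 0.793). In the SUGP1 lines, 10 of the 12 higher genes were called higher in each of E554K and G603N (background at that level 8.41% and 4.95%), and 12 and 11 of the 12 lower genes were called lower (17.8% and 14.7%). In PHF5A 2xTL 10 of 12 and 11 of 12 had the same sign, and CDC40 alone was called. Over the 11967 genes the PHF5A 2xTL median was itself below 0 (-0.04), with 28 genes higher and 322 lower at an unadjusted p below 0.05 (edgeR). For 6 of the 24 genes the response differed from control by the test of the difference, each time by being smaller in SF3B1 T1080I: ENSG00000269688, ENSG00000232611 (-1.33), MYOM1, YJEFN3 (1.35), TMEM131L (0.89) and STX16 (0.60). Of all genes tested 1.9% differed, and of the 11967 genes at that level 509 had a higher and 32 a lower value than control. The SF3B1 T1080I estimate enters both the choice of the 24 genes and the difference, so the count only describes them.

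**Figure D2:**
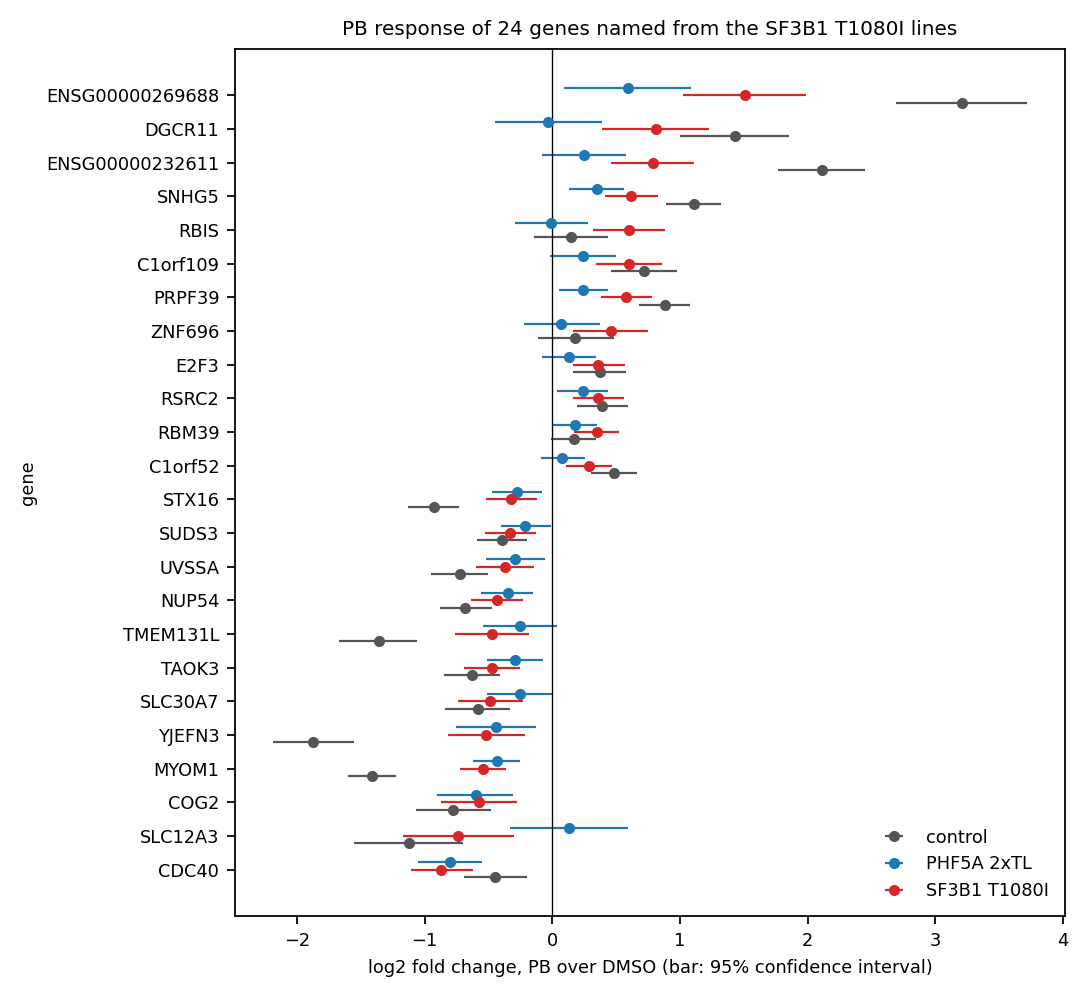
Log2 fold change of PB over DMSO for the 24 genes of lowest p in SF3B1 T1080I, with 95% confidence intervals, in SF3B1 T1080I, control and PHF5A 2xTL. All 24 control estimates fall on the same side of 0 as those of SF3B1 T1080I; for CDC40 the SF3B1 T1080I value is -0.87 and the control value -0.45.

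The comparison was then turned round, to follow the genes that PB changed in control into the SF3B1 T1080I lines. Of the genes called in control, 2532 averaged 4 CPM or more in the control libraries, 556 higher and 1976 lower. Their median log2 fold change was 0.43 and -0.56 in control and 0.12 and -0.05 in SF3B1 T1080I. In the mutant lines 92.1% of the higher genes lay above 0, against 59.6% of all genes at that level, and 70.1% of the lower genes lay below 0, against 40.4%. An unadjusted p below 0.05 in the matching direction was reached by 8.27% of the higher and 4.3% of the lower genes, against 0.969 and 0.919% of all genes at that level. The remaining response was small. The 95% confidence interval in SF3B1 T1080I excluded the control estimate for 80.6% of the higher and 96.6% of the lower genes. These shares leave out the error of the control estimate itself. By the test of the difference, 40 of the higher (7.19%) and 495 of the lower genes (25.1%) differed, against 1.9% of all genes tested. Control enters both the choice of the genes and the difference, so these counts only describe them. The control estimates were chosen for being past a threshold, so they are on the large side.

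The size of this remainder was put as a slope through the origin of each line's log2 changes on the control estimates over the 2532 genes. It was 0.159, 0.0913 and 0.160 in SF3B1 T1080I lines 1, 2 and 3, a mean of 0.137 ± 0.0395 (SD, n = 3), or 13.7% of the control response. The PHF5A 2xTL lines had 0.202, 0.0889 and 0.156 (0.149 ± 0.0569), which overlap them. The 6 SUGP1 lines stood far higher, from 0.770 to 0.893. The 3 control replicates, which define the axis, had 0.932, 0.980 and 1.08. Correlations over genes with the control estimates were 0.47 to 0.50 in the SF3B1 T1080I lines and 0.31 to 0.34 in the PHF5A 2xTL lines. Genes are not independent replicates, and these values describe the libraries.

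**Figure D3:**
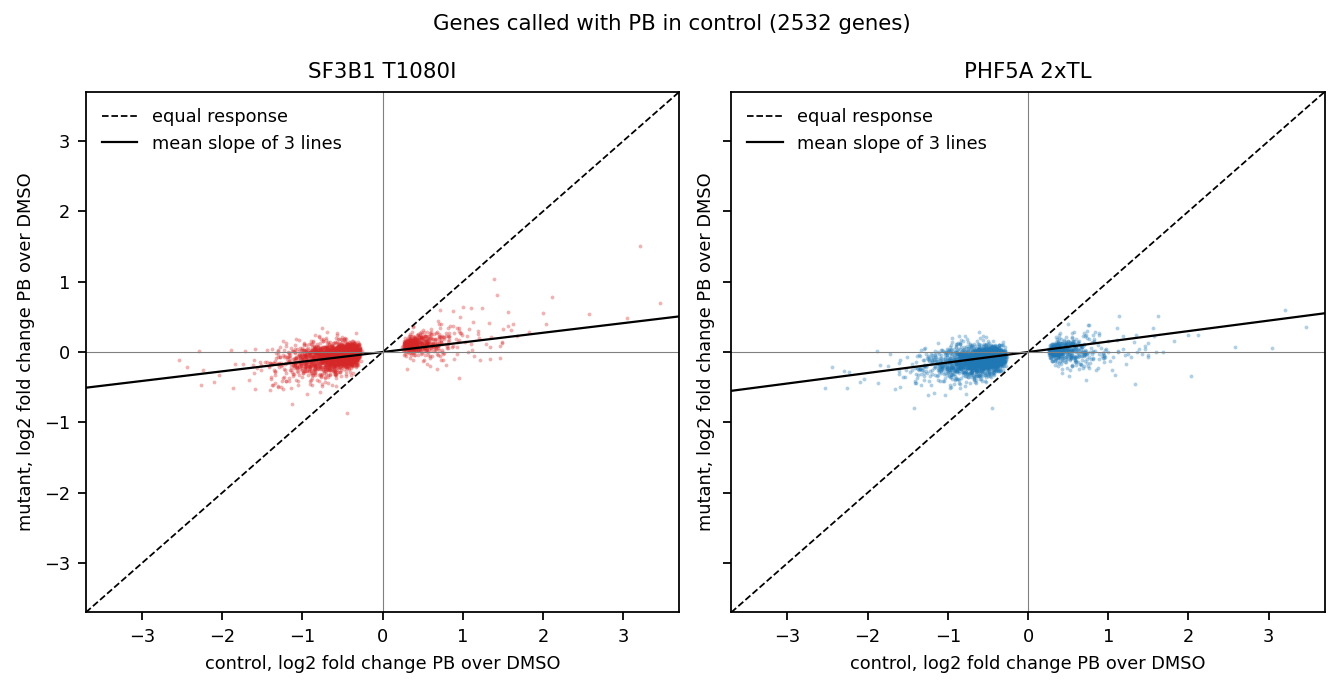
Log2 fold change of PB over DMSO in control (x) against SF3B1 T1080I (left) and PHF5A 2xTL (right). Each point is 1 of the 2532 genes called in control that averaged 4 CPM or more there. The dashed line marks an equal response and the solid line the mean slope. The SF3B1 T1080I points lie along a shallow line of slope 0.137, which is a fraction of the control response in both directions.

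The lower slope of line 2 went with the upward median shift of its genes. With an intercept, the slopes were 0.159, 0.177 and 0.174 in lines 1, 2 and 3 and the intercepts 0.00, 0.11 and 0.02. The same fit gave 0.125, 0.0846 and 0.137 in the PHF5A 2xTL lines, all below the 3 SF3B1 T1080I values; this was seen after the slopes had been computed and was not tested. By direction, the genes that rose in control had slopes of 0.186, 0.289 and 0.226 in SF3B1 T1080I and of -0.0184, 0.0543 and 0.0965 in PHF5A 2xTL. The genes that fell had slopes of 0.152, 0.0406 and 0.143 in SF3B1 T1080I and 0.259, 0.0977 and 0.172 in PHF5A 2xTL. A shift of a whole library moves the slopes of the rising and the falling genes in opposite ways, so the direction cannot be told apart from the offsets of the lines.

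**Figure D4:**
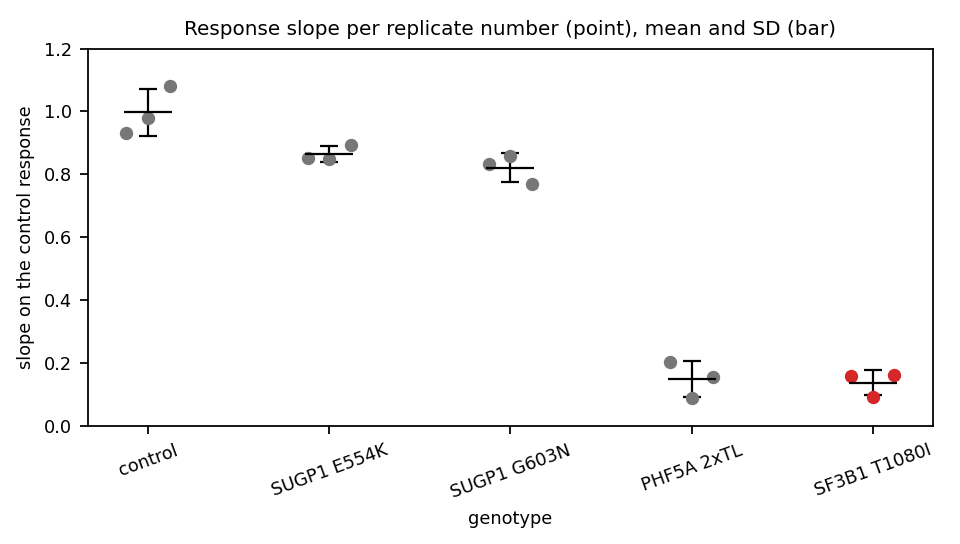
Slope of the log2 changes on the control estimates over 2532 genes, 1 point for each replicate number, with the mean and SD of 3, for the 5 genotypes. The SF3B1 T1080I lines sit between 0.0913 and 0.160 and the SUGP1 lines between 0.770 and 0.893.

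Along the range of the control response, the remainder grew with its size. The 338 genes called higher in control by a log2 fold change of up to 0.5 had a median of 0.11 in SF3B1 T1080I, the 179 genes between 0.5 and 1 one of 0.12, and the 26 genes between 1 and 1.5 one of 0.17. The 13 genes above 1.5 had one of 0.49 (0.56, 0.47 and 0.46 by line), a group of under 20. On the lower side the medians were -0.03 for 789 genes down to -0.5, -0.06 for 1004 genes between -0.5 and -1 and -0.16 for 161 genes between -1 and -1.5. The 15 and 7 genes beyond that had -0.18 and -0.25.

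The strongest control genes were then followed singly in the mutant lines. The 10 genes per direction with the largest folds in control, among those averaging 4 CPM or more with no overlap, had log2 fold changes of 1.63 to 3.46 and -2.54 to -1.84 there. In SF3B1 T1080I the same genes ranged from 0.22 to 1.51 and from -0.52 to 0.03. The difference from control passed the test for 9 of the 10 higher and 10 of the 10 lower genes, where the background of genes that differ is 1.9%. Since they were ranked by the control estimate, which is part of the difference, this count only describes them. RETREG1-AS1 was the higher gene that did not pass (difference -1.44, adjusted p = 0.123).

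OVGP1, the gene of an oviductal glycoprotein, rose most in control. It went from 0.817, 1.61 and 1.23 CPM with DMSO to 13.8, 12.5 and 13.5 CPM with PB there (log2 fold change 3.46 ± 0.28, adjusted p = 2.03e-09). In SF3B1 T1080I it stood at 1.5, 0.669 and 1.55 CPM with DMSO and at 2.22, 1.47 and 2.07 CPM with PB. Its groups overlapped and the value did not pass the test (0.69 ± 0.28, adjusted p = 1). The difference was -2.77 ± 0.39 (adjusted p = 0.000118).

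On the lower side GOLGA2P5, a pseudogene, fell from 12.3, 14.6 and 20.8 CPM to 1.53, 3.03 and 3.92 CPM in control (log2 fold change -2.54 ± 0.16, adjusted p = 2.81e-11). It stood at 14.0, 15.4 and 13.0 CPM with DMSO and at 11.8, 14.5 and 13.1 CPM with PB in SF3B1 T1080I (-0.11 ± 0.15, 95% confidence interval -0.41 to 0.19, adjusted p = 1). The difference of 2.43 ± 0.22 had the lowest adjusted p of all (3.19e-07). As a pseudogene of GOLGA2 it can share reads with its parent, which the counting may split. KRCC1 and LINC01355 had control values of -2.44 and -2.29, and in SF3B1 T1080I values of -0.22 ± 0.19 and 0.02 ± 0.20, with differences of 2.22 and 2.31 (adjusted p = 6.07e-05 for both).

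Over all genes, the response differed between SF3B1 T1080I and control for 597 of 31444 genes (1.9%), 522 with a higher value in SF3B1 T1080I (1.66%) and 75 with a lower one (0.239%). The control libraries enter both this difference and the control response, so the overlap of those calls is not a result. The median of the 522 genes was -0.04 in SF3B1 T1080I and -0.84 in control, and that of the 75 genes was 0.08 and 1.61. The count was 101 without the block, 1692 with these 2 genotypes fitted alone and 1076 with DESeq2. It was 243, 210 and 233 without SF3B1 T1080I line 1, 2 or 3 and 395, 311 and 282 without control replicate 1, 2 or 3.

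Among the genes of lowest p for the difference, SLF2, which brings the SMC5/6 complex to damaged DNA, stood at 74.8, 81.4 and 74.5 CPM with DMSO and at 80.7, 91.8 and 73.2 CPM with PB in SF3B1 T1080I, whereas it fell from 77.6 ± 7.02 to 33.9 ± 4.23 CPM in control (SD, n = 3 each). The log2 fold changes were 0.09 ± 0.09 and -1.20 ± 0.09, and the difference was 1.29 ± 0.13 (adjusted p = 1.07e-06). SIK2, a salt-inducible kinase, stood at 60.9, 58.3 and 62.7 CPM with DMSO and at 49.3, 52.7 and 50.5 CPM with PB. Its groups did not overlap, with a value of -0.25 ± 0.09 (adjusted p = 1) against -1.51 ± 0.09 in control (difference 1.26, adjusted p = 1.52e-06). KAT14, a histone acetyltransferase subunit of the ATAC complex, had -0.17 ± 0.11 against -1.74 ± 0.12 (difference 1.57, adjusted p = 2.12e-06). On the other side SNHG1, a host gene of small nucleolar RNAs, stood at 155, 161 and 192 CPM with DMSO and at 187, 194 and 226 CPM with PB, a value of 0.26 ± 0.09 (adjusted p = 1) against 1.19 ± 0.09 in control (difference -0.93 ± 0.13, adjusted p = 7.82e-05).

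The splicing machinery was read through lists of genes by role, each set beside the 11967 genes that averaged 4 CPM or more, whose median was 0.02 in SF3B1 T1080I, with 116 genes higher and 110 lower at an unadjusted p below 0.05. In the list of SF3b, SF3a and the factors that bring the U2 snRNP to the branch point, 0 of 28 genes passed the test and the median was 0.07. Unadjusted p below 0.05 was reached by 4 higher and 4 lower genes. Over the list 67.9% of the estimates lay above 0, and 11 genes were higher and 5 lower in all 3 lines. The genes described next, SF1, RBM5, U2SURP and DDX46, all had estimates below 0 and do not stand for the list. SF1, which binds the branch point before the U2 snRNP, stood at 518, 542 and 564 CPM with DMSO and at 417, 489 and 434 CPM with PB (log2 fold change -0.28 ± 0.09, unadjusted p = 0.00386, adjusted p = 1). RBM5, a regulator of early spliceosome assembly, stood at 79.9, 78.2 and 75.2 CPM and at 62.1, 65.5 and 60.5 CPM (-0.31 ± 0.11, unadjusted p = 0.00856, adjusted p = 1). In both genes the groups did not overlap, which on the lower side was so for 2.2% of all genes at that level. Both fell in control (-0.54, adjusted p = 0.000122, and -0.59, adjusted p = 0.000479). U2SURP had -0.22 ± 0.09 (adjusted p = 1) against -0.56 in control (adjusted p = 7.55e-05).

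DDX46, the helicase that helps the U2 snRNP onto the branch point, had estimates of opposite sign in the 2 genotypes. It stood at 333, 319.9 and 358 CPM with DMSO and at 258, 316 and 284 CPM with PB in SF3B1 T1080I, with no overlap but almost no step in line 2 (log2 changes -0.37, -0.02 and -0.33). The value was -0.24 ± 0.09 (unadjusted p = 0.0134, adjusted p = 1). In control DDX46 rose from 229 ± 9.70 to 283 ± 13.8 CPM (SD, n = 3 each, 0.31 ± 0.09, adjusted p = 0.0264). The difference in response was -0.55 ± 0.13 (adjusted p = 0.0194). The SF3B1 T1080I lines began from a higher DMSO level than control and ended at a similar PB level.

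For the U1 snRNP and 5′ splice site list, PRPF39 was the 1 of 12 genes called, all 12 estimates were above 0 and the median was 0.11. LUC7L, a U1 snRNP-associated protein, was next with 0.19 ± 0.09 (unadjusted p = 0.0387, adjusted p = 1). The list of tri-snRNP and catalytic factors had 0 of 26 genes called, 0 at an unadjusted p below 0.05 and a median of 0.04. Among 13 second-step and release factors CDC40 was the only gene called, the only one at an unadjusted p below 0.05, and the median was 0.02. DHX35, a helicase of that list, had -0.16 ± 0.17 (adjusted p = 1) against -1.09 in control (difference 0.93, adjusted p = 0.038).

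Of 28 SR proteins and splicing kinases, which mark exons for the spliceosome, 0 passed the test in SF3B1 T1080I and the median was 0.10. Control had 13 higher, 2 lower and a median of 0.28. Of all genes averaging 4 CPM or more, 4.42% were called higher and 17.1% lower in control, for comparison with the control counts given here. SREK1 stood at 124, 123 and 141 CPM with DMSO and at 153, 168 and 145 CPM with PB (log2 fold change 0.26 ± 0.09, adjusted p = 1), and TRA2A had 0.20 ± 0.08 (adjusted p = 1). SRSF6 stood at 224, 229 and 245 CPM and at 187, 208 and 185 CPM (-0.27 ± 0.09, adjusted p = 1). Of 27 hnRNP genes 0 passed and the median was 0.05, with HNRNPDL at 0.22 ± 0.09 (adjusted p = 1), where control had 5 higher and 0 lower. Of 26 host genes of small nucleolar RNAs SNHG5 passed and the median was 0.07, where control had 11 higher, 2 lower and a median of 0.34. SNHG1, TAF1D (0.25 ± 0.10) and SNHG6 (0.26 ± 0.11) were at an unadjusted p below 0.05 (adjusted p = 1 for each). Among these hosts 4 had a difference from control that passed, each lower in SF3B1 T1080I, TAF1D with -0.75 (adjusted p = 0.00322). Such a lower value was found for 0.239% of all genes tested and for 32 of the 11967 genes averaging 4 CPM or more. Control enters both its own calls and the difference, so the 2 counts are not separate.

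All 79 cytosolic ribosomal protein genes had estimates above 0, with a median of 0.12, and 41 were higher in each of the 3 lines, against 16.1% of all genes at that level, yet 0 passed the test and 0 reached an unadjusted p below 0.05. RPL29 stood at 565, 616 and 646 CPM with DMSO and at 587, 764 and 706 CPM with PB, with overlap (log2 fold change 0.16 ± 0.09, adjusted p = 1). In control the median was 0.26 and 26 of the 79 were called higher, against 4.42% of all genes at that level. Members of 1 list share their libraries, and the shift of line 2 adds to all of them. The 13 mitochondrially encoded mRNAs had a median of 0.01 and 0 calls. Single-exon protein-coding genes, which need no splicing, had 0 of 407 called and a median of 0.01. Control had 30 higher, 3 lower and a median of 0.15, where 2.57% of all genes tested were called higher and 7.27% lower.

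Lists outside splicing had medians near 0 in SF3B1 T1080I. In control, 17.1% of all genes at that level were called lower and 4.42% higher, and the counts in control are set beside those shares. The 40 genes of mitosis and cytokinesis had a median of 0.03 and 0 calls, against -0.23 and 17 lower and 1 higher in control. ANLN, which encodes the cytokinesis protein anillin, stood at 186, 182 and 174 CPM with DMSO and at 175, 178 and 138 CPM with PB (log2 fold change -0.15 ± 0.09, adjusted p = 1) against -1.03 ± 0.09 in control (difference 0.88, adjusted p = 0.000119). The 42 genes of DNA replication had a median of 0.04 and 0 calls, against 8 lower in control, a share near that of all genes, with RFC1, the large subunit of the clamp loader, at -0.20 ± 0.08 (adjusted p = 1) and a difference of 0.59 (adjusted p = 0.00603). Of 24 genes of the integrated stress response 0 passed and the median was -0.03. SLC7A11, the cystine transporter, had -0.33 ± 0.11 (unadjusted p = 0.00403, adjusted p = 1) against -0.88 in control (difference 0.55, adjusted p = 0.0484). DDIT3, the stress-induced transcription factor CHOP, stood at 9.23, 9.05 and 8.57 CPM with DMSO and at 7.55, 7.07 and 8.19 CPM with PB (-0.24 ± 0.17, adjusted p = 1), whereas it rose in control (0.68 ± 0.17, adjusted p = 0.00926), and the difference passed the test (-0.91 ± 0.24, adjusted p = 0.044).

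No member was called in the lists of p53 targets (24 genes, median 0.00), the BCL2 family and death brakes (22 of 23 genes tested, 0.07), heat shock (19 genes, 0.05), nonsense-mediated decay and the exon junction complex (17 genes, 0.01) or immediate early genes (27 genes, 0.08). The list of genes known for cryptic 3′ splice sites in cells with cancer-associated SF3B1 mutations had 0 of 24 called and a median of 0.02, against 6 lower in control, where 17.1% of all genes at that level were called lower. In that list ABCC5, a membrane transporter, had -0.23 ± 0.09 (unadjusted p = 0.0208, adjusted p = 1) against -1.07 in control (difference 0.84, adjusted p = 0.000478). EGR2 was the only immediate early gene at an unadjusted p below 0.05, at 0.176 to 0.994 CPM with DMSO and 0.622 to 0.913 CPM with PB (adjusted p = 1), with overlap.

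**Figure D5:**
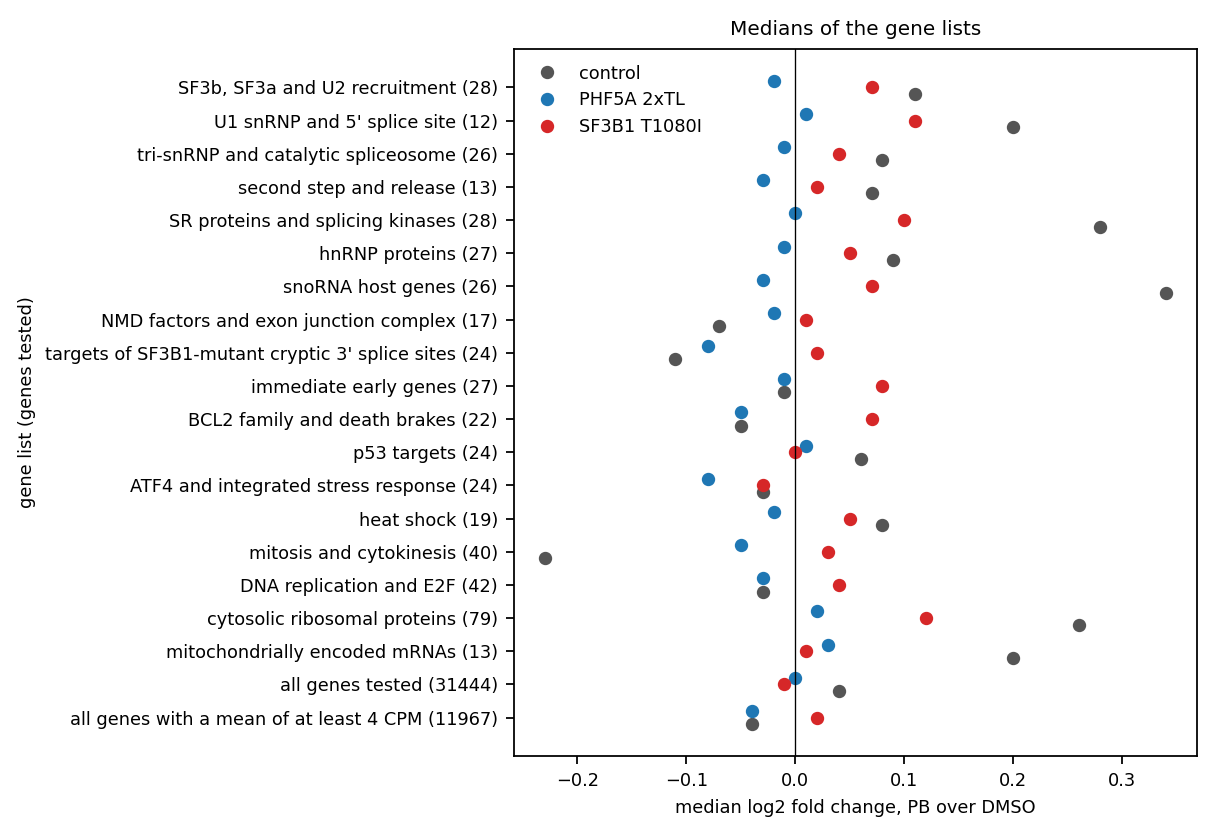
Median log2 fold change of PB over DMSO in each gene list but the marker lists and the single-exon genes, and over all genes, in SF3B1 T1080I, control and PHF5A 2xTL; the number of genes tested is in brackets. For the lists drawn, the SF3B1 T1080I medians lie between -0.03 and 0.12, and those of control between -0.23 and 0.34.

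The precision of these libraries limits what could have been missed. For the same 11967 genes the median SE of a log2 fold change in SF3B1 T1080I was 0.116, and the median distance from the estimate to either bound of its 95% confidence interval was 0.238, a 1.18-fold change. For 11916 of them (99.6%) the interval lay within 2-fold in either direction, and for 10919 (91.2%) within 1.5-fold. The estimate itself passed 1.5-fold for 17 genes, against 1181 in control. For rarer genes the precision was lower: the median SE over all 31444 genes was 0.451.

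SF3B1 T1080I and PHF5A 2xTL, which change 2 subunits that form the same pocket, did not differ in their response past the test for any gene (0 of 31444, 0.0%, edgeR, and 0 with DESeq2, with 332 genes at an unadjusted p below 0.05 in edgeR, 1.06%), although 2 genes were called with no low-count filter. This does not show that they respond alike, since the SE of such a difference was 0.34 for ENSG00000269688 (0.92, 95% confidence interval 0.22 to 1.61) and 0.17 for CDC40 (-0.07, -0.41 to 0.28). The median absolute log2 fold change over the 11967 genes was 0.0702 in SF3B1 T1080I, 0.0732 in PHF5A 2xTL and 0.206 in control.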

How the data were processed

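RNA was extracted from cultured cells, selected for poly(A), made into libraries with a Lexogen CORALL kit and sequenced in pairs on a NovaSeq, per the labels' protocols. The deposited file holds expected counts per gene: 65.5% of the values above 0 were not whole, and they were rounded here. UMI-tools, STAR, SAMtools 1.10 and hg38 are named in the submitters' processing notes. For the counter, the annotation, the use of strand and the handling of multiply matched reads, the details were not given in the sources used here. Overlapping genes, antisense genes and pseudogenes may therefore share reads. Symbols matched 61369 of 61487 gene identifiers, and GENCODE 29 positions 58312. The SF3B1 sequence came from the GENCODE 29 transcript.

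The 30 libraries were fitted together with edgeR 4.0.16 (R 4.3.3, limma 3.58.1): filterByExpr over 10 groups (31444 genes kept), TMM scaling, a block with 15 levels (genotype by replicate number) and 1 PB effect per genotype, by the quasi-likelihood test. Replicate numbers paired libraries because the labels give both libraries of a number the same clone in the mutants, and the deviations of same-numbered libraries correlated at 0.79 to 0.84. In control a number marks a culture. P-values were adjusted by Benjamini-Hochberg over all genes and calls made at 0.05. SE is the log2 fold change divided by the root of F. Per-line changes and slopes used log2 CPM with a prior count of 2. The fit was also run on simulated counts, drawn with the spread per gene estimated over all 30 libraries. That run cannot show how the fit treats lines of smaller spread, such as those of SF3B1 T1080I.

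Named genes were SF3B1, the calls and the genes of lowest p up to 12 per direction, up to 4 per gene list, the 10 largest control changes per direction and the 5 of lowest p per direction for the difference. The members and lists were chosen with earlier results of these data known. Alternatives were no block, the genotypes compared alone, DESeq2 1.42.0, RLE scaling, no low-count filter, leaving out each replicate, a prior count of 0.5, no minimum CPM, other gene sets for the slope and, chosen after seeing the data, a slope with an intercept and leaving out control or PHF5A 2xTL replicates from the differences.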

Additional observations from a re-analysis of the deposited data

Results flagged for a closer look

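In each of these genes the response to PB, as a log2 fold change, differed between SF3B1 T1080I and control by the test of the difference itself (edgeR, adjusted p below 0.05); values are SF3B1 T1080I minus control. Of the genes of lowest p in SF3B1 T1080I the differences were -1.70 for ENSG00000269688, -1.33 for ENSG00000232611, 0.87 for MYOM1, 1.35 for YJEFN3, 0.60 for STX16 and 0.89 for TMEM131L. Each had a smaller response than in control.

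Among members of the gene lists the differences were -0.55 for DDX46, 0.93 for DHX35, -0.93 for SNHG1, -0.75 for TAF1D, 0.84 for ABCC5, 0.55 for SLC7A11, -0.91 for DDIT3, 0.88 for ANLN and 0.59 for RFC1. DDX46 and DDIT3 had estimates of opposite sign in the genotypes, and neither passed the test in SF3B1 T1080I.

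Among the genes raised most in control the differences were -2.77 for OVGP1, -2.55 for ENSG00000272540, -2.04 for CMYA5, -1.64 for ENSG00000253667, -1.54 for ENSG00000270890, -1.46 for ENSG00000289092 and -1.23 for ENSG00000279738. Among those lowered most they were 2.43 for GOLGA2P5, 2.22 for KRCC1, 2.31 for LINC01355, 1.79 for ENSG00000264112, 1.99 for RSKR, 1.67 for KCNAB3, 1.72 for RBM26-AS1, 1.92 for KLRA1P and 1.68 for KLF15.

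Of the other genes with the lowest p for the difference, SLF2 had 1.29, SIK2 1.26, KAT14 1.57, ENSG00000270681 -3.07, NOP14-AS1 -1.14 and PAIP1P1 -4.80. PAIP1P1, a processed pseudogene that can share reads with its parent gene, stood at 0.294 to 1.24 CPM over the 6 SF3B1 T1080I libraries.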

How the results depend on the processing

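With no replicate block, that is without pairing the libraries of a clone, PB called 1 gene in SF3B1 T1080I in place of 5 (1 shared, CDC40), 1395 in control in place of 3095 (1387 shared), and 101 genes for the difference of SF3B1 T1080I from control in place of 597 (all 101 shared). With only the genotypes compared, the counts were 44 in SF3B1 T1080I (17 higher and 27 lower, 5 shared), 0 in PHF5A 2xTL in place of 1, with 1078 genes at an unadjusted p below 0.05, and 1692 for the difference (597 shared). DESeq2 gave 2 in PHF5A 2xTL and 1076 for the difference from control. With no low-count filter the count was 2 in PHF5A 2xTL and 2 for the difference from PHF5A 2xTL. Leaving out 1 replicate at a time gave 0 to 1 genes in SF3B1 T1080I, 1744 to 1996 in control, 0 to 0 in PHF5A 2xTL and 210 to 395 for the difference from control. RLE scaling kept every count within 1.5-fold. The mean slope on the control response was 0.114 to 0.170 over its alternatives. Of 192 alternative values of the 24 genes of lowest p in SF3B1 T1080I none changed sign, 19 passed the threshold that the reported value had missed, 17 of them with only the genotypes compared, and 18 no longer passed. Genes under 4 CPM had wider errors, and no statement is made on them singly beyond those named.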

Other observations

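Gene classes of the annotation, which were looked at after the values had been seen, gave 1 further description. Among 24 RNAs annotated inside an intron on the strand of their host, with a mean of at least 4 CPM, ENSG00000269688 in HNRNPL was the 1 gene called in SF3B1 T1080I and DGCR11 in DGCR2 the only other at an unadjusted p below 0.05. The median log2 fold change of the class was 0.08 in SF3B1 T1080I and 0.09 in control. In control 4 were called higher and 1 lower, against 4.42 and 17.1% of all genes at that level. ENSG00000274964, such an RNA in BICD1, had 0.40 in SF3B1 T1080I (adjusted p = 1) and 0.73 in control (adjusted p = 0.0177). For 585 processed pseudogenes the median was -0.01 in SF3B1 T1080I and 0.30 in control, and for 154 long intergenic non-coding RNAs 0.01 and -0.18, with 0 called in SF3B1 T1080I in either class.

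With the 6 SF3B1 T1080I libraries fitted alone, 44 genes were called, among them all 5 called in the full fit. The further calls include RBM5 (-0.32, adjusted p = 0.0316), SLC7A11 (-0.33, adjusted p = 0.0191), the RNA-binding ubiquitin ligase gene RBBP6 (-0.31, adjusted p = 0.0297) and CXCR6 (1.48, adjusted p = 0.00439, at a mean of 1.31 CPM). ENSG00000225840 was called too (-0.76, adjusted p = 6.45e-06, at a mean of 35.7 CPM). It was also called in the fit of all libraries with no low-count filter (-0.74, adjusted p = 1.84e-05). The genes named here were chosen after their values were seen.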
